A study of Mus musculus with 4 samples.

Results

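Tbx21, Eomes, Zeb2 and S1pr5, known in the mouse as regulators of natural killer (NK) cell maturation and exit into the blood, were followed across the cell classes of 4 mouse spleens, as 4 genes of the 32285 in the count tables. They were picked because the counts of Tbx21, Zeb2 and S1pr5 were lower in NK cells after TNF, so their TNF ratios in NK cells below describe that choice and are not evidence of their own. Spleen cells were profiled by droplet single-cell RNA sequencing with unique molecular identifiers (UMIs), 1 library per group. The groups were TRIF-KO mice given TNF, TRIF-KO mice given PBS, wild-type mice given TNF and wild-type mice given PBS. The wild type was C57BL/6, the TRIF-KO was on that background, and all mice were 10 weeks old. TNF was 9 µg of mouse TNF in 100 µl given intravenously, PBS was the vehicle, and spleens were taken after 4 h. Red cells had been lysed and dead cells removed before loading. TRIF is the adaptor protein (gene Ticam1) that carries signals of Toll-like receptors 3 and 4.

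Tbx21 encodes T-bet and Eomes encodes Eomesodermin, T-box transcription factors that NK cells need in order to develop and mature. In mouse NK cells T-bet acts upstream of Zeb2, a zinc-finger repressor that drives the late CD27-low, CD11b-high stage, and of S1pr5, a sphingosine-1-phosphate receptor that mature NK cells use to leave lymphoid organs. Eomes is also induced in CD8 T cells with memory features, Zeb2 is also a factor of monocytes, macrophages and dendritic cells, and S1pr5 is also known in mouse patrolling monocytes.

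The 4 genes lie on 3 chromosomes of GRCm38 (mm10). Tbx21 spans chr11:97098071-97115331 on the minus strand, Eomes chr9:118478212-118486132 on the plus strand, Zeb2 chr2:44983632-45117395 on the minus strand and S1pr5 chr9:21242912-21248443 on the minus strand. Their promoters are shown because 3 of the 4 were chosen for moving together and because T-bet and Zeb2 are themselves DNA-binding members of the group. Each line gives RefSeq sequence of GRCm38.p6 from 250 bases before to 50 after a transcription start, 5′ to 3′ on the gene's strand, with motif matches in capitals. Of the 4 starts that RefSeq lists for Zeb2, the second from upstream is printed, whose window holds a motif match. The most upstream window held none. Each other gene had 1 start, so more sequence was searched for Zeb2.
Tbx21 promoter, chr11:97115282-97115581, minus strand: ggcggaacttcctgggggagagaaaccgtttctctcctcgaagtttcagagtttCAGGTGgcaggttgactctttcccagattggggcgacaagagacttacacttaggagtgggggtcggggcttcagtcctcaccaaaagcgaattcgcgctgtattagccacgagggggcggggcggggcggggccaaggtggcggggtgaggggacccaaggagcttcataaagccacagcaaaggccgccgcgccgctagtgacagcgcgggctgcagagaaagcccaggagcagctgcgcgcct
Eomes promoter, chr9:118477939-118478238, plus strand: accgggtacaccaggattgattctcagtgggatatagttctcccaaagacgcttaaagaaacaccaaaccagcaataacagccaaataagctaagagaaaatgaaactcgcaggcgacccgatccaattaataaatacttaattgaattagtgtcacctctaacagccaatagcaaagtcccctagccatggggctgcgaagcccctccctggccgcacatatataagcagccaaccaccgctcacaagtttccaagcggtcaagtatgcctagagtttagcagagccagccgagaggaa
Zeb2 promoter, chr2:45113230-45113529, minus strand: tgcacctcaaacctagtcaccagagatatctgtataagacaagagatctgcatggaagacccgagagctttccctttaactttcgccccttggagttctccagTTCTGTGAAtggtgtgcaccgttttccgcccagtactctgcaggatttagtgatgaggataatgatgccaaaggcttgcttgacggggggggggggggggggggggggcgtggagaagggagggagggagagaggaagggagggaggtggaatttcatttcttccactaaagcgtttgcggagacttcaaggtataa
S1pr5 promoter, chr9:21248394-21248693, minus strand: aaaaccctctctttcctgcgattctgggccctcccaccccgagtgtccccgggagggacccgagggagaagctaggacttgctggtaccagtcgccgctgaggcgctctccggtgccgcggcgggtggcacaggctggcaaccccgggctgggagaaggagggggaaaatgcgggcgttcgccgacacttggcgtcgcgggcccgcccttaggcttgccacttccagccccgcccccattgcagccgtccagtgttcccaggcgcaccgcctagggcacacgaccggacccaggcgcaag
Both strands were searched for 6 short motifs. These were the T-box core TCACAC (in 14.5% of 32851 mouse promoter windows of the same length), the E-box CACCTG read by Zeb proteins (20.2%), the Runx core ACCACA (16.8%), the STAT motif TTCNNNGAA (8.30%), the NF-kB motif (1.63%) and the TATA box TATAAA (13.6%). The Tbx21 window held 1 E-box, read as CAGGTG on the gene's strand, from base -196 to base -191 relative to the start. The printed Zeb2 window held 1 STAT match, TTCTGTGAA, from base -147 to base -139, and the overlapping window of the third start held the same bases. The Eomes and S1pr5 windows and the other Zeb2 windows held none of the 6. A match describes these letters only, and a window without one says nothing about binding.

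The libraries held 8060 barcodes (TRIF-KO TNF), 6508 (TRIF-KO PBS), 6855 (wild-type TNF) and 2683 (wild-type PBS), of which 6606, 5364, 4966 and 2448 cells were kept in that order, with 22374948 to 59088436 UMIs per library. Pairs of libraries shared 3 to 15 barcode sequences. The wild-type TNF library stood apart in barcodes over the mitochondrial limit, at 22.4%, against 6.26 to 11.6% in the other 3. Ticam1 had 5.79 CPM (UMIs per 1000000 UMIs of the cells counted) in TRIF-KO TNF, 8.52 CPM in TRIF-KO PBS, 3.75 CPM in wild-type TNF and 6.88 CPM in wild-type PBS. Its transcript was therefore not lower in the libraries labelled TRIF-KO, and these counts do not check the label, since the labels do not describe the change made to the gene. With 1 mouse spleen library per group no test between conditions was possible. Every interval below is a 95% interval that covers counting error only, and differences between individual mice cannot be told apart from differences between treatments or genotypes.

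Cells were assigned to a class by 8 marker genes per class, none of them Tbx21, Eomes, Zeb2 or S1pr5. The NK gate took 75 cells in TRIF-KO TNF, 137 in TRIF-KO PBS, 72 in wild-type TNF and 68 in wild-type PBS. These were 1.14% (0.894 to 1.42), 2.55% (2.15 to 3.01), 1.45% (1.14 to 1.82) and 2.78% (2.16 to 3.51) of kept cells, so that the NK share was lower in each TNF library than in its PBS library. Among barcodes over the mitochondrial limit, which were left out, the gate took 10 in TRIF-KO TNF, 11 in TRIF-KO PBS, 8 in wild-type TNF and 0 in wild-type PBS. All 8 NK markers were detected in each library, but the gate chose cells by these markers, so this does not check the label. The genes leading NK-gated cells over all other kept cells were Gzma, Ccl5, Klre1, Klrk1, Klra8, Klra4, Klrb1c and Ncr1, with Eomes at rank 27. Of these, Ccl5, Klra4 and Eomes were not markers of the gate, nor were Klrc2 at rank 9 and Prf1 at rank 10. The summed NK markers were themselves lower with TNF, at 14820 CPM in TRIF-KO TNF, against 21484 CPM in TRIF-KO PBS, and at 14723 CPM in wild-type TNF, against 20414 CPM in wild-type PBS. Median UMIs per NK-gated cell were 6388 in TRIF-KO TNF, 3566 in TRIF-KO PBS, 4195 in wild-type TNF and 5550.5 in wild-type PBS.

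RNA of other cells in the NK gate was measured with the same marker lists. The 8 T-cell markers summed to 748 CPM (TRIF-KO TNF), 679 CPM (TRIF-KO PBS), 974 CPM (wild-type TNF) and 680 CPM (wild-type PBS), most of it from the constant-region genes Trbc1 and Trbc2. In the same order Cd3d had 9, 5, 16 and 10 UMIs and Cd3g 1, 7, 8 and 20, while Cd3e had 0 to 2 UMIs per library. A UMI of Cd3d, Cd3e or Cd3g was found in 9 of 75, 9 of 137, 10 of 72 and 4 of 68 cells. The 8 monocyte markers summed to 619 CPM (TRIF-KO TNF), 1098 CPM (TRIF-KO PBS), 472 CPM (wild-type TNF) and 1244 CPM (wild-type PBS), which moved in the same direction as Zeb2. Ly6c2 and Ccr2, which NK cells also express, made up most of that sum. Without Ly6c2 the other 7 summed to 470 CPM (TRIF-KO TNF), 442 CPM (TRIF-KO PBS), 247 CPM (wild-type TNF) and 859 CPM (wild-type PBS). That sum was lower with TNF in wild-type only. F13a1 and Fn1 had 0 UMIs in 3 libraries and 1 each in wild-type PBS. In wild-type PBS 1 NK-gated cell held 174 of the 177 UMIs of Lyz2 and Csf1r. Ratios of the 4 genes in NK-gated cells were also taken without cells holding a UMI of Lyz2 or Csf1r, or of Cd3d, Cd3e or Cd3g. Ratios of the other genes below were not.

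Tbx21 was lower in NK-gated cells of both TNF libraries. It had 24 UMIs (44.5 CPM, 28.5 to 66.1) in TRIF-KO TNF, 110 UMIs (209 CPM, 172 to 252) in TRIF-KO PBS, 16 UMIs (47.5 CPM, 27.2 to 77.2) in wild-type TNF and 79 UMIs (177 CPM, 140 to 220) in wild-type PBS. The intervals of the TNF and PBS libraries did not overlap in either genotype, and the TNF libraries overlapped each other. The log2 ratio of TNF over PBS was -2.24 (-2.94 to -1.59) in TRIF-KO and -1.89 (-2.77 to -1.11) in wild-type. A UMI of Tbx21 was found in 19 of 75 cells (25.3%) in TRIF-KO TNF, 70 of 137 (51.1%) in TRIF-KO PBS, 14 of 72 (19.4%) in wild-type TNF and 42 of 68 (61.8%) in wild-type PBS.

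Eomes, the other T-box factor, kept the largest part of its level. It had 128 UMIs (237 CPM, 198 to 282) in TRIF-KO TNF, 187 UMIs (356 CPM, 307 to 411) in TRIF-KO PBS, 71 UMIs (211 CPM, 165 to 266) in wild-type TNF and 142 UMIs (318 CPM, 268 to 374) in wild-type PBS. The log2 ratio of TNF over PBS was -0.59 in both genotypes, with intervals of -0.92 to -0.25 in TRIF-KO and -1.02 to -0.17 in wild-type. It did not pass 2-fold in either. A UMI of Eomes was found in 49 of 75 cells (65.3%) in TRIF-KO TNF, 103 of 137 (75.2%) in TRIF-KO PBS, 37 of 72 (51.4%) in wild-type TNF and 50 of 68 (73.5%) in wild-type PBS.

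Zeb2 was lower with TNF in both genotypes, and lowest in wild-type TNF. It had 109 UMIs (202 CPM, 166 to 244) in TRIF-KO TNF, 343 UMIs (653 CPM, 586 to 726) in TRIF-KO PBS, 35 UMIs (104 CPM, 72.4 to 145) in wild-type TNF and 284 UMIs (635 CPM, 564 to 714) in wild-type PBS. TNF over PBS gave a log2 ratio of -1.69 (-2.02 to -1.38) in TRIF-KO and -2.61 (-3.16 to -2.10) in wild-type. The number of cells with 3 or more UMIs of Zeb2 was 16 of 75 in TRIF-KO TNF, 56 of 137 in TRIF-KO PBS, 1 of 72 in wild-type TNF and 46 of 68 in wild-type PBS. Without cells that held a UMI of Lyz2 or Csf1r the ratio was -1.65 in TRIF-KO and -2.62 in wild-type.

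S1pr5, the receptor of the group, had 22 UMIs (40.7 CPM, 25.5 to 61.7) in TRIF-KO TNF, 109 UMIs (207 CPM, 170 to 250) in TRIF-KO PBS, 8 UMIs (23.8 CPM, 10.3 to 46.8) in wild-type TNF and 91 UMIs (204 CPM, 164 to 250) in wild-type PBS. The TNF libraries again lay below both PBS libraries without overlap of the intervals. Its log2 ratio of TNF over PBS was -2.35 (-3.08 to -1.68) in TRIF-KO and -3.10 (-4.35 to -2.06) in wild-type. A UMI of S1pr5 was found in 18 of 75 cells (24.0%) in TRIF-KO TNF, 67 of 137 (48.9%) in TRIF-KO PBS, 7 of 72 (9.72%) in wild-type TNF and 48 of 68 (70.6%) in wild-type PBS.

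**Figure D1:**
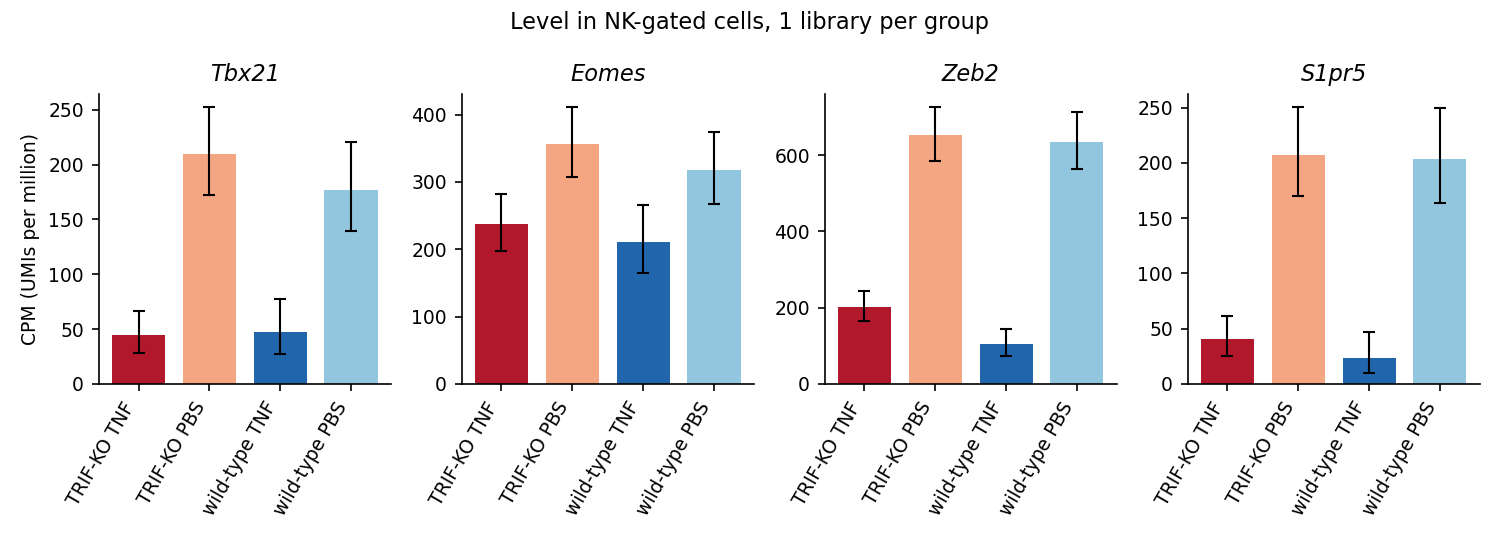
Level of each gene in NK-gated cells, in CPM from 0, with 1 bar per library and 95% Poisson intervals for counting error. In the Tbx21, Zeb2 and S1pr5 panels both TNF bars lie far below both PBS bars (44.5 and 47.5 CPM, against 209 and 177 CPM, for Tbx21), while the Eomes bars differ less, at 237 and 211 CPM, against 356 and 318 CPM.

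Across all genes, 2923 were measured in NK-gated cells (a sum of 100 UMIs or more across libraries, with 50 CPM reached in any of them). Of the 4 genes, 3 were at least 2-fold lower with TNF in TRIF-KO and 3 in wild-type, where 5.3% and 10.7% of measured genes were at least 2-fold lower. At least 2-fold higher were 0 of the 4, with 3.04% of measured genes in TRIF-KO and 4.04% in wild-type. The counts behind these shares were 155 lower and 89 higher genes in TRIF-KO, and 313 lower and 118 higher genes in wild-type. Scaled by the median of ratios they were 118 lower and 126 higher genes in TRIF-KO, and 202 lower and 162 higher genes in wild-type. As the 4 genes were picked on this contrast, nothing follows from their share. The median log2 ratio of all measured genes was -0.11 in TRIF-KO and -0.15 in wild-type. Relative to that median, the ratio in TRIF-KO was -2.13 for Tbx21, -0.48 for Eomes, -1.59 for Zeb2 and -2.24 for S1pr5. In wild-type it was -1.74 for Tbx21, -0.44 for Eomes, -2.46 for Zeb2 and -2.94 for S1pr5.

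A deeper cell shows more genes, so each NK-gated cell was also thinned to 2000 UMIs, leaving out 0 cells of TRIF-KO TNF, 2 of TRIF-KO PBS, 3 of wild-type TNF and 1 of wild-type PBS. A UMI of S1pr5 was then found in 6.67% of TRIF-KO TNF cells (2.20 to 14.9), 33.3% of TRIF-KO PBS cells (25.5 to 42.0), 2.90% of wild-type TNF cells (0.353 to 10.1) and 40.3% of wild-type PBS cells (28.5 to 53.0). The unthinned S1pr5 share of TRIF-KO TNF cells was more than 3 times as large, in the library with the deepest NK-gated cells. Thinned shares for Zeb2 were 33.3% in TRIF-KO TNF, 57.8% in TRIF-KO PBS, 18.8% in wild-type TNF and 59.7% in wild-type PBS. For Tbx21 they were 9.33%, 32.6%, 10.1% and 31.3%, and for Eomes 37.3%, 47.4%, 33.3% and 49.3%, in the same order of libraries. Free RNA gives UMIs in cells that do not express a gene, and B-gated cells set that level for 3 of the genes: over the libraries 0.067 to 0.316% of thinned B-gated cells held a UMI of Tbx21, 0 to 0.105% one of Eomes and 0 to 0.035% one of S1pr5. The median depth of B-gated cells was 3786 to 5941 UMIs. For Zeb2, which B cells also gave at 72.7 to 118 CPM, erythroid-gated cells were used, with 0.862 to 1.13% of thinned cells and median depths of 11396.5 to 15743 UMIs. All NK shares lay above these levels.

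**Figure D2:**
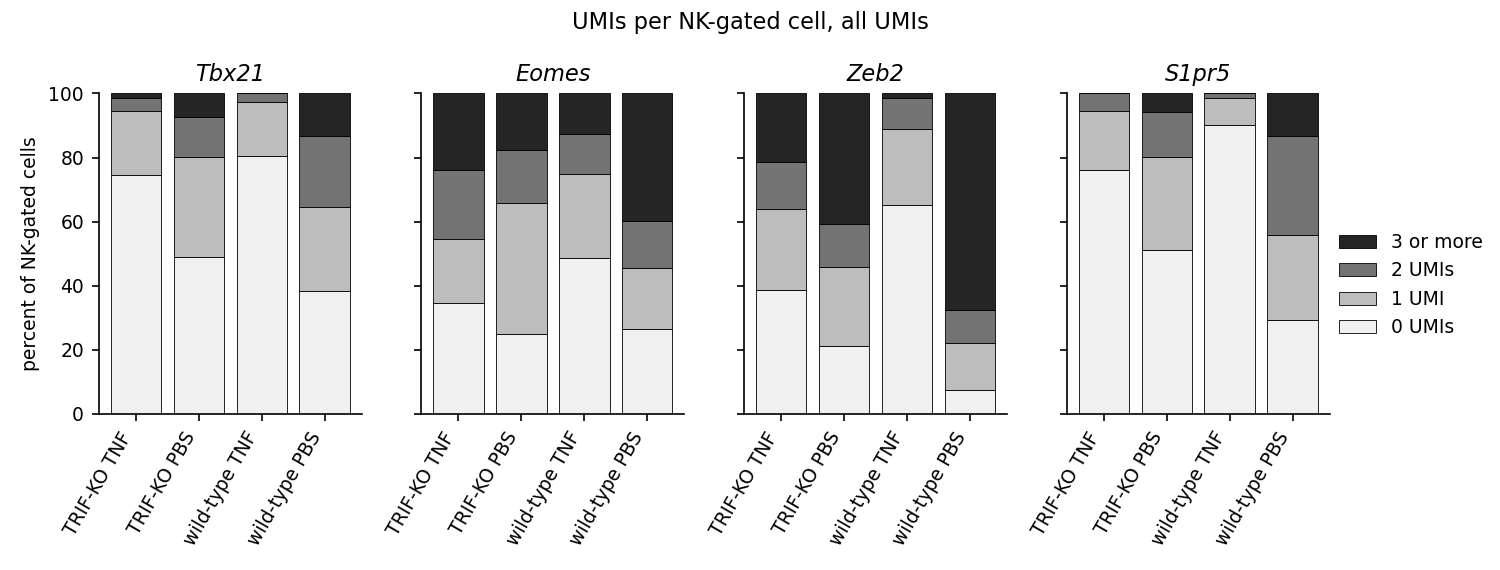
Share of NK-gated cells with 0, 1, 2 and 3 or more UMIs of each gene, per library, at full depth. Cells with 3 or more UMIs of Zeb2 make up the top segment in 46 of 68 wild-type PBS cells and in 1 of 72 wild-type TNF cells.

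How many of the 4 genes a single NK-gated cell showed also differed. At full depth 3 of the genes were found in 15 cells and all 4 in 2 of the 75 TRIF-KO TNF cells, and in 59 and 20 of the 137 TRIF-KO PBS cells. In wild-type TNF 3 were found in 3 cells and all 4 in 0 of 72, against 34 and 18 of the 68 wild-type PBS cells. None of the 4 was found in 8 TRIF-KO TNF cells, 2 TRIF-KO PBS cells, 12 wild-type TNF cells and 0 wild-type PBS cells. Thinned to 2000 UMIs, 3 genes were found in 1.33% of TRIF-KO TNF cells, 17.0% of TRIF-KO PBS cells, 0% of wild-type TNF cells (0 of 69) and 28.4% of wild-type PBS cells.

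In 3 libraries Eomes was found about as often in NK-gated cells with Tbx21 as in those without. A UMI of Eomes was found in 12 of 19 cells with a UMI of Tbx21 and in 37 of 56 without in TRIF-KO TNF, in 53 of 70 with and 50 of 67 without in TRIF-KO PBS, and in 30 of 42 with and 20 of 26 without in wild-type PBS. In wild-type TNF, on few cells, it was found in 2 of 14 with (14.3%) and 35 of 58 without (60.3%). Those 14 cells were deeper than the rest, with a median of 5431 UMIs against 4081 UMIs in cells without Tbx21. Of the 14, 13 held a UMI of Ncr1, the gene of the NK receptor NKp46, 6 held one of Il7r, the interleukin-7 receptor, and 4 held one of Cd3d, Cd3e or Cd3g. Among the 58 cells without Tbx21, Ncr1 was found in 46, Il7r in 11 and Cd3d, Cd3e or Cd3g in 6. These genes were looked at after the Eomes counts were seen. A UMI of Zeb2 was found in 15 of 18 cells with S1pr5 and 31 of 57 without in TRIF-KO TNF, 55 of 67 with and 53 of 70 without in TRIF-KO PBS, 3 of 7 with and 22 of 65 without in wild-type TNF, and 47 of 48 with and 16 of 20 without in wild-type PBS. In each library the share with Zeb2 was higher among cells with S1pr5, by little in TRIF-KO PBS. In wild-type TNF this rests on only 7 cells with S1pr5, too few to give a direction.

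The comparison of genotypes was not what the genes were picked on. In NK-gated cells given PBS, TRIF-KO and wild-type differed by less than counting error in all 4 genes, with log2 ratios of TRIF-KO over wild-type of 0.24 (-0.19 to 0.68) for Tbx21, 0.16 (-0.16 to 0.49) for Eomes, 0.04 (-0.19 to 0.27) for Zeb2 and 0.03 (-0.39 to 0.45) for S1pr5. After TNF, Zeb2 was higher in TRIF-KO, at 202 CPM, against 104 CPM in wild-type, a log2 ratio of 0.96 (0.40 to 1.55). Over 11 alternative settings this ratio ran from 0.85 to 1.11. The top of that range, 1.11 (0.51 to 1.74), came without cells holding a UMI of Cd3d, Cd3e or Cd3g. After TNF the other ratios of TRIF-KO over wild-type had intervals on both sides of 0, at -0.10 (-1.07 to 0.91) for Tbx21, 0.17 (-0.26 to 0.61) for Eomes and 0.78 (-0.44 to 2.16) for S1pr5. The TNF ratio of Zeb2 differed between TRIF-KO and wild-type by 0.90 on the log2 scale (0.31 to 1.5), and that of S1pr5 by 0.70 (-0.51 to 1.90). With 1 mouse library per group neither difference was tested against variation between animals.

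T-gated cells gave little of 3 of the genes. There were 1333 T-gated cells in TRIF-KO TNF, 1273 in TRIF-KO PBS, 1029 in wild-type TNF and 451 in wild-type PBS, and T cells were split by UMIs of Cd8a or Cd8b1 and of Cd4. Over the 4 libraries Zeb2 had 1.57 to 8.57 CPM and S1pr5 0 to 2.71 CPM in T-gated cells. Tbx21 in CD8 T cells had 4.93 CPM in TRIF-KO TNF, 8.11 CPM in TRIF-KO PBS, 7.06 CPM in wild-type TNF and 13.1 CPM in wild-type PBS, from 25 to 33 UMIs each. Its log2 ratio of TNF over PBS was -0.72 (-1.51 to 0.07) in TRIF-KO and -0.89 (-1.70 to -0.10) in wild-type. These values depend on how the cells are chosen: CD8 T cells taken from clusters named as T cells gave -0.10 (-1.15 to 0.98) in wild-type. Those clusters left out an unnamed cluster of 333 cells, nearest to the T markers and led by Ccl5 and Il2rb. They held 94 UMIs of Tbx21 over all libraries, against 187 in the T gate. The gate applied after thinning gave -1.58 (-2.61 to -0.62) in TRIF-KO. S1pr5 had 0 UMIs in the 454 CD8 T cells of wild-type TNF, against 11 UMIs in the 228 of wild-type PBS, all in 4 cells. Set against a floor of 3 UMIs in the TNF library, this is 5.16-fold lower. That value leaves out the counting error of the 11 UMIs and is not a lower limit. In CD4 T cells Eomes had 11 UMIs and S1pr5 1 UMI over all 1282 cells.

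Eomes was the gene of the group with a clear signal in CD8 T cells, and there the genotypes differed. It had 135 UMIs in 522 cells (22.9 CPM, 19.2 to 27.2) in TRIF-KO TNF, 140 UMIs in 525 cells (37.9 CPM, 31.8 to 44.7) in TRIF-KO PBS, 29 UMIs in 454 cells (8.19 CPM, 5.48 to 11.8) in wild-type TNF and 138 UMIs in 228 cells (54.8 CPM, 46.1 to 64.8) in wild-type PBS. Wild-type TNF lay below the other 3 libraries with no overlap of intervals. The log2 ratio of TNF over PBS was -0.72 (-1.07 to -0.37) in TRIF-KO and -2.74 (-3.37 to -2.16) in wild-type, a difference of 2.02 (1.34 to 2.67). Among the 2758 genes measured in T-gated cells, a set that Eomes was too low to enter, 0.834% were at least 2-fold lower in TRIF-KO and 4.93% in wild-type. With at most 5% mitochondrial UMIs the Eomes ratio was -0.89 (-1.29 to -0.48) in TRIF-KO and -2.05 (-2.75 to -1.40) in wild-type, so that the wild-type fold shrank by more than 1.5 times while the intervals of the genotypes still did not overlap.

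Ccl5, a chemokine gene of memory and effector CD8 T cells, was used to mark such cells, a choice made after the values were seen. The share of CD8 T cells with a UMI of Ccl5 was 23.8% (20.2 to 27.6) in TRIF-KO TNF, 19.6% (16.3 to 23.3) in TRIF-KO PBS, 24.2% (20.4 to 28.4) in wild-type TNF and 28.1% (22.3 to 34.4) in wild-type PBS. Within these cells a UMI of Eomes was found in 49 of 124 in TRIF-KO TNF, 38 of 103 in TRIF-KO PBS, 9 of 110 in wild-type TNF and 34 of 64 in wild-type PBS. In these cells the log2 ratio of TNF over PBS was -0.96 (-1.46 to -0.46) in TRIF-KO and -3.43 (-4.48 to -2.53) in wild-type. Tbx21 in the same cells had 20 UMIs in TRIF-KO TNF, against 22 UMIs in TRIF-KO PBS, a ratio of -1.20 (-2.15 to -0.26). In wild-type TNF it had 20 UMIs, against 25 UMIs in wild-type PBS, a ratio of -0.71 (-1.63 to 0.20).

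**Figure D3:**
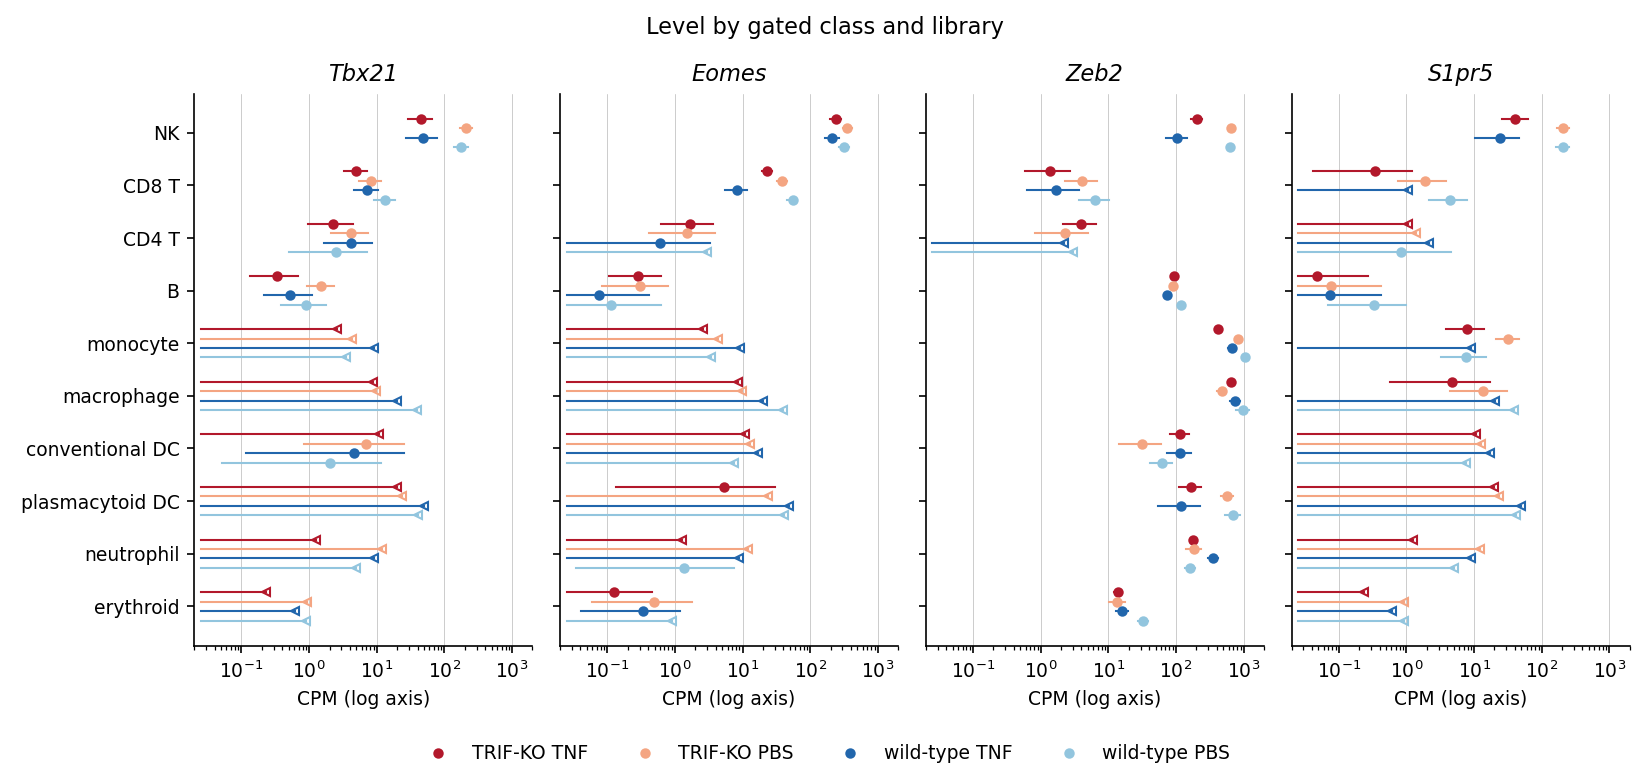
Level of each gene by gated class and library, in CPM on a log axis. Points are libraries, lines are 95% Poisson intervals, and open triangles mark the upper limit where no UMI was counted. Tbx21, Eomes and S1pr5 are highest in NK cells in every library, while Zeb2 is also high in monocytes and macrophages and lies between 72.7 and 118 CPM in B cells.

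Tbx21, Eomes and S1pr5 were each highest in NK-gated cells in every library. Tbx21 had 4.93 to 13.1 CPM in CD8 T cells and 2.25 to 4.16 CPM in CD4 T cells, whose intervals overlapped those of CD8 T cells in TRIF-KO TNF, TRIF-KO PBS and wild-type TNF. Few UMIs lay behind some other values of Tbx21, which overlapped those of T cells: conventional dendritic gates had 0 to 6.94 CPM from 4 UMIs in all, and plasma-cell gates 0 to 16.1 CPM from 6 UMIs, 5 of them in 1 cell of wild-type PBS. B-gated cells had 0.337 to 1.52 CPM of Tbx21, and neutrophil, monocyte, macrophage and erythroid gates had 0 UMIs. Eomes was highest in NK-gated cells and next in CD8 T cells, with at most 1.69 CPM in CD4 T cells and 0.304 CPM in B-gated cells and 0 UMIs in monocyte- and macrophage-gated cells. S1pr5 was highest in NK-gated cells, which held 37.3% of all its UMIs in TRIF-KO TNF, 64.1% in TRIF-KO PBS, 66.7% in wild-type TNF and 70.0% in wild-type PBS.

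Cells that passed no gate held 61 UMIs of S1pr5 over all libraries. Among gated classes other than NK cells and the CD8 T cells described above, S1pr5 was counted mainly in monocytes, with 46 UMIs. In the monocyte gate it had 11 UMIs (7.75 CPM, 3.87 to 13.9) in TRIF-KO TNF, 27 UMIs (31.6 CPM, 20.8 to 45.9) in TRIF-KO PBS, 0 UMIs (upper limit 9.10 CPM) in wild-type TNF and 8 UMIs (7.5 CPM, 3.24 to 14.8) in wild-type PBS. Cells clustered without the gate and named from the same markers gave 22.8 CPM of S1pr5 in TRIF-KO TNF, 42.0 CPM in TRIF-KO PBS, 5.48 CPM in wild-type TNF and 20.4 CPM in wild-type PBS for monocytes. In both genotypes the TNF library was the lower. In the gate the intervals overlapped in wild-type only. In the clusters they overlapped in TRIF-KO (15.5 to 32.4 CPM for TNF, against 30.6 to 56.1 CPM for PBS). They also overlapped there in wild-type (1.13 to 16.0 CPM for TNF, against 13.05 to 30.3 CPM for PBS). Monocytes of the TNF and PBS libraries lay in different clusters, so these values set different clusters against each other. The macrophage gate had 2 UMIs of S1pr5 (4.72 CPM, 0.572 to 17.1) in TRIF-KO TNF, 5 UMIs (13.3 CPM, 4.33 to 31.1) in TRIF-KO PBS and 0 UMIs in both wild-type libraries.

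Zeb2 had a different order, with monocytes above NK cells in every library and macrophages above them in 3 of 4. In the monocyte gate it had 414 CPM (381 to 449) in TRIF-KO TNF, 813 CPM (754 to 876) in TRIF-KO PBS, 663 CPM (587 to 748) in wild-type TNF and 1052 CPM (991 to 1115) in wild-type PBS, from 67, 91, 38 and 70 cells. In the macrophage gate, whose cells had median depths of only 1026 to 1245 UMIs, Zeb2 had 661 CPM in TRIF-KO TNF, 472 CPM in TRIF-KO PBS, 757 CPM in wild-type TNF and 974 CPM in wild-type PBS. NK-gated cells given PBS, at 653 CPM in TRIF-KO and 635 CPM in wild-type, lay below monocytes of their own library without overlap of intervals. Plasmacytoid dendritic cells, which in the mouse depend on Zeb2, had 166 CPM (13 cells) in TRIF-KO TNF, 570 CPM (17 cells) in TRIF-KO PBS, 120 CPM (7 cells) in wild-type TNF and 700 CPM (7 cells) in wild-type PBS. Their TNF libraries lay below their PBS libraries without overlap of intervals, on very few cells. Conventional dendritic cells had 31.2 to 115 CPM of Zeb2, from 26 to 37 cells. Within these, the cells with more type 2 markers had 131 to 316 CPM and those with more type 1 markers 0 to 29.7 CPM.

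Monocyte, macrophage and dendritic gates held fewer than 50 cells in some libraries, so ratios of Zeb2 were also taken from the clusters. Monocytes and macrophages of the TNF and PBS libraries lay in different clusters, so their ratios set different clusters against each other. Of the monocyte clusters, one held 87 cells of TRIF-KO TNF and 52 of wild-type TNF and 0 of either PBS library, and the other 113 cells of TRIF-KO PBS and 80 of wild-type PBS and 0 of either TNF library. Of the macrophage clusters, one held 245 cells of TRIF-KO TNF, 11 of TRIF-KO PBS, 111 of wild-type TNF and 6 of wild-type PBS, and the other 0, 100, 1 and 46 cells in that order. In monocyte clusters the log2 ratio of TNF over PBS was -0.55 (-0.69 to -0.41) in TRIF-KO and -0.63 (-0.80 to -0.46) in wild-type. In macrophage clusters it was -0.13 (-0.41 to 0.15) in TRIF-KO and -0.25 (-0.64 to 0.15) in wild-type, while the macrophage gate gave 0.48 (0.21 to 0.76) in TRIF-KO and -0.36 (-0.76 to 0.03) in wild-type. For conventional dendritic cells the direction turned with the choice of cells. Their clusters gave -0.83 (-1.17 to -0.49) in TRIF-KO and -0.82 (-1.22 to -0.44) in wild-type, from 67 to 194 cells per library, and their gate gave 1.87 (0.80 to 3.10) in TRIF-KO and 0.90 (0.08 to 1.72) in wild-type, from 26 to 37 cells. No direction is given for Zeb2 in these cells.

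The TNF ratio of Zeb2 in neutrophils and B cells had intervals that did not overlap between the genotypes. Neutrophils of the TNF and PBS libraries lay in different clusters: one, led by Ngp and Camp, held 352 cells of TRIF-KO TNF, 4 of TRIF-KO PBS, 82 of wild-type TNF and 5 of wild-type PBS, and the other, led by Csf3r and Cxcr2, held 2, 103, 0 and 162 cells in that order. Neutrophil-gated cells had 179 CPM (520 UMIs, 345 cells) in TRIF-KO TNF, 184 CPM (56 UMIs, 100 cells) in TRIF-KO PBS, 357 CPM (146 UMIs, 77 cells) in wild-type TNF and 163 CPM (120 UMIs, 159 cells) in wild-type PBS. The log2 ratio of TNF over PBS was -0.04 (-0.44 to 0.38) in TRIF-KO and 1.13 (0.77 to 1.49) in wild-type. Among the 2955 genes measured in neutrophil-gated cells, 9.2% were at least 2-fold higher in TRIF-KO and 11.2% in wild-type, and the median of all was -0.43 in TRIF-KO and -0.41 in wild-type. Relative to those medians Zeb2 had a ratio of 0.39 in TRIF-KO and 1.55 in wild-type. Scaled by the median of ratios the TRIF-KO value was 0.49, so its sign depends on the scaling. B-gated cells, the most numerous class, had 93.7 CPM of Zeb2 in TRIF-KO TNF, 89.1 CPM in TRIF-KO PBS, 72.7 CPM in wild-type TNF and 118 CPM in wild-type PBS. Their log2 ratio of TNF over PBS was 0.07 (-0.03 to 0.18) in TRIF-KO and -0.70 (-0.83 to -0.57) in wild-type. B cells also fell into clusters of unequal makeup: the largest held 1170 cells of TRIF-KO TNF, 879 of TRIF-KO PBS, 1410 of wild-type TNF and 185 of wild-type PBS, and the next 774, 1254, 487 and 651 cells in that order. Through their numbers B-gated cells held 45.5% of all Zeb2 UMIs in TRIF-KO TNF, 39.0% in TRIF-KO PBS, 50.2% in wild-type TNF and 32.9% in wild-type PBS.

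**Figure D4:**
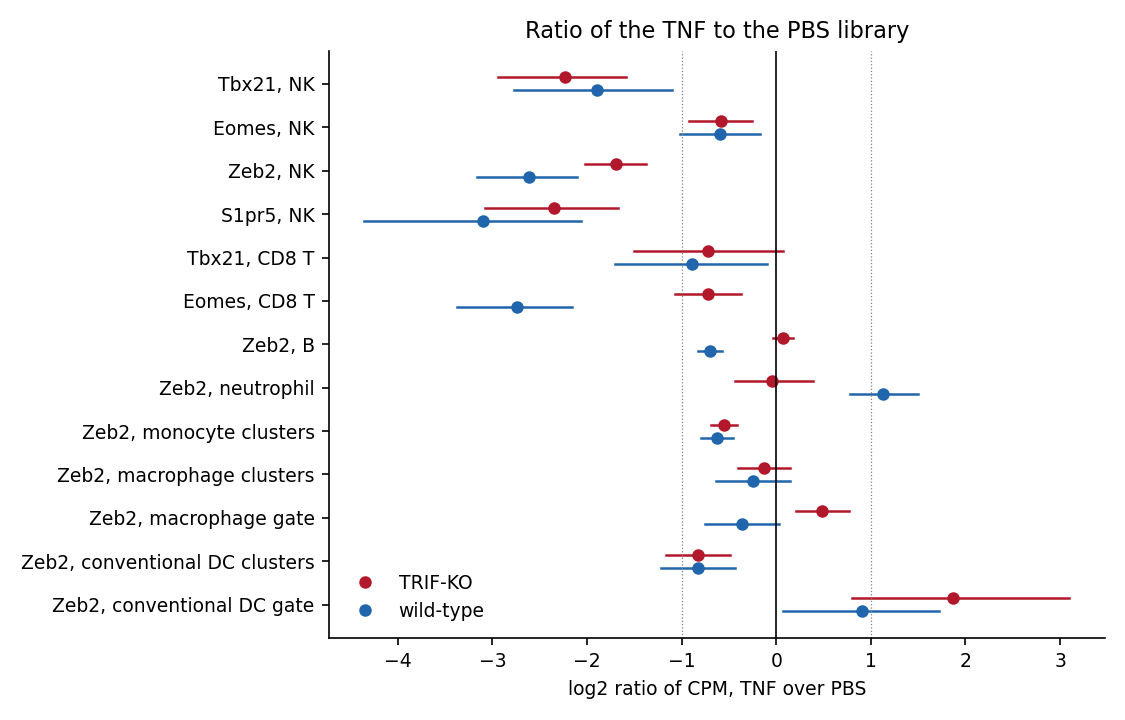
Log2 ratio of CPM in the TNF over the PBS library for the genes and classes described, with 95% intervals for counting error; TRIF-KO is drawn above wild-type, and dotted lines mark 2-fold. The intervals of the genotypes lie apart for Eomes in CD8 T cells (-0.72 and -2.74) and for Zeb2 in NK cells (-1.69 and -2.61), B cells (0.07 and -0.70), neutrophils (-0.04 and 1.13) and the macrophage gate (0.48 and -0.36). For Zeb2 in conventional dendritic cells (DC) the clusters lie left of 0 (-0.83 and -0.82) and the gate right of it (1.87 and 0.90).

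Relatives of the 4 genes were read to see whether others of their families were present. Mga and Zeb1 were near equal in the NK-gated cells of all 4 libraries, Mga at 64.7 to 68.5 CPM and Zeb1 at 51.4 to 65.4 CPM. Tbx2, Tbr1 and Tbx6 had at most 2 UMIs each per library in NK-gated cells. Among sphingosine-1-phosphate receptors S1pr4 had 100.0 CPM in TRIF-KO TNF, 141 CPM in TRIF-KO PBS, 89.1 CPM in wild-type TNF and 85.0 CPM in wild-type PBS in NK-gated cells. S1pr1, the lymphocyte egress receptor, had too few UMIs in NK-gated cells to enter the measured genes, with 9 UMIs in TRIF-KO TNF, 40 in TRIF-KO PBS, 1 in wild-type TNF and 15 in wild-type PBS. In T-gated cells S1pr1 had 229 CPM in TRIF-KO TNF, 328 CPM in TRIF-KO PBS, 258 CPM in wild-type TNF and 332 CPM in wild-type PBS. S1pr3 had 0 UMIs in NK-gated cells.

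Of a list of 14 genes of mature NK cells other than the 4, 12 were measured in NK-gated cells. In TRIF-KO 5 were at least 2-fold lower with TNF and 1 at least 2-fold higher, with a list median of -0.76. In wild-type 5 were lower and 2 higher, with a list median of -0.82. Among all measured genes 5.3% were at least 2-fold lower and 3.04% higher in TRIF-KO, and 10.7% lower and 4.04% higher in wild-type. This list and those below were chosen with earlier results of these data known, so their counts are descriptions only. Itgam, which encodes CD11b, had 53.7 CPM in TRIF-KO TNF, 221 CPM in TRIF-KO PBS, 47.5 CPM in wild-type TNF and 186 CPM in wild-type PBS, and log2 ratios of -2.04 in TRIF-KO and -1.97 in wild-type. Klrg1, an inhibitory receptor of mature NK cells, had ratios of -1.48 in TRIF-KO and -2.01 in wild-type, and Cma1, a chymase gene, -1.94 in TRIF-KO and -2.37 in wild-type. Klra9, a Ly49 receptor gene that shares near-identical copies with its family, had -0.85 in TRIF-KO and -1.79 in wild-type. In the opposite direction were Gzmb, the granzyme B gene, at 0.70 in TRIF-KO and 1.39 in wild-type, and Irf8, an interferon regulatory factor, at 1.01 in TRIF-KO and 1.79 in wild-type. Ly6c2 belongs to this list and to the monocyte markers.

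Genes of immature NK cells went both ways, with 11 of 14 measured and list medians of 0.39 in TRIF-KO and 0.52 in wild-type. At least 2-fold higher were 4 and lower 1 in TRIF-KO, and 3 higher and 2 lower in wild-type. The shares of all measured genes were 3.04% higher and 5.3% lower in TRIF-KO, and 4.04% higher and 10.7% lower in wild-type. Il7r had 85 UMIs (157 CPM) in TRIF-KO TNF, 20 UMIs (38.1 CPM) in TRIF-KO PBS, 73 UMIs (217 CPM) in wild-type TNF and 4 UMIs (8.95 CPM) in wild-type PBS. Emb, an adhesion protein gene, had 328 CPM in TRIF-KO TNF, 81.8 CPM in TRIF-KO PBS, 362 CPM in wild-type TNF and 105 CPM in wild-type PBS. The log2 ratio was also positive for Ltb, which encodes lymphotoxin beta, at 1.77 in TRIF-KO and 1.49 in wild-type. T cells also express Il7r, Emb and Ltb, and the T-marker sums in the NK gate, given above, were higher in each TNF library than in its PBS library; their part in these ratios was not tested. Cd27, the surface receptor that marks the earlier stages of mouse NK cells, had 68.5 CPM in TRIF-KO TNF, 116 CPM in TRIF-KO PBS, 47.5 CPM in wild-type TNF and 80.5 CPM in wild-type PBS, a log2 ratio of -0.76 in both genotypes. Cd7 had -0.97 in TRIF-KO and -1.36 in wild-type, and Cd2 had -1.04 in TRIF-KO and -0.52 in wild-type.

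Of 24 other transcription factors of NK cells listed, 15 were measured, with list medians of -0.31 in TRIF-KO and -0.55 in wild-type. Of all measured genes 5.3% were at least 2-fold lower and 3.04% higher in TRIF-KO, and 10.7% lower and 4.04% higher in wild-type. Of the 15, 0 were at least 2-fold lower or higher in TRIF-KO. In wild-type 2 were lower, a share near that of all measured genes, and 0 higher. The 2 were Klf6, at -0.10 in TRIF-KO and -1.04 in wild-type, and Ikzf3, which encodes Aiolos, at -0.73 in TRIF-KO and -1.13 in wild-type. Id2, a factor that all innate lymphocytes need, was near level at 1493 CPM in TRIF-KO TNF, 1496 CPM in TRIF-KO PBS, 1432 CPM in wild-type TNF and 1233 CPM in wild-type PBS.

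Among 18 egress and homing genes 12 were measured, with list medians of -0.18 in TRIF-KO and -0.16 in wild-type, close to the median of all measured genes. In TRIF-KO 2 were at least 2-fold lower and 2 higher, and in wild-type 3 were lower and 3 higher. For all measured genes the shares were 5.3% lower and 3.04% higher in TRIF-KO, and 10.7% lower and 4.04% higher in wild-type. Cd69, whose product holds S1pr1 inside the cell, had 117 CPM in TRIF-KO TNF, 24.7 CPM in TRIF-KO PBS, 217 CPM in wild-type TNF and 38.0 CPM in wild-type PBS, with ratios of 2.24 in TRIF-KO and 2.51 in wild-type. Rgs1, a regulator of G-protein signals from chemokine receptors, had ratios of 2.40 in TRIF-KO and 1.90 in wild-type. Cxcr4, a bone marrow homing receptor, had 0.42 (-0.22 to 1.08) in TRIF-KO and 2.20 (1.35 to 3.14) in wild-type. Integrin genes were lower, with Itgb2 at -1.32 in TRIF-KO and -1.13 in wild-type and Itgb7 at -1.50 in TRIF-KO and -1.34 in wild-type.

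Genes known as targets of T-bet or Eomes did not move as a block, with 12 of 14 measured and list medians of -0.21 in TRIF-KO and 0.04 in wild-type. At least 2-fold lower were 2 and higher 0 in TRIF-KO, and 4 lower and 1 higher in wild-type. Beside these counts stand the shares of all measured genes, 5.3% lower and 3.04% higher in TRIF-KO, and 10.7% lower and 4.04% higher in wild-type. Ifng, the interferon gamma gene, had ratios of -1.34 in both genotypes, from 24 UMIs in TRIF-KO TNF, 59 in TRIF-KO PBS, 14 in wild-type TNF and 47 in wild-type PBS. The chemokine gene Ccl4 had -1.27 in TRIF-KO and -2.70 in wild-type, and Ccl3 had -0.91 in TRIF-KO and -2.56 in wild-type. Prf1, the perforin gene, had -0.16 in TRIF-KO and 0.16 in wild-type, and Il2rb 0.10 in TRIF-KO and 0.42 in wild-type. Of 18 cytokine receptors and signal genes 11 were measured, with list medians of 0.10 in TRIF-KO and 0.30 in wild-type; 0 were at least 2-fold lower and 1 higher in TRIF-KO, and 1 lower and 2 higher in wild-type. Ifngr1, a chain of the interferon gamma receptor, had 0.87 in TRIF-KO and 1.12 in wild-type, and Il18r1, which belongs to both lists, -0.80 in TRIF-KO and -1.13 in wild-type.

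**Figure D5:**
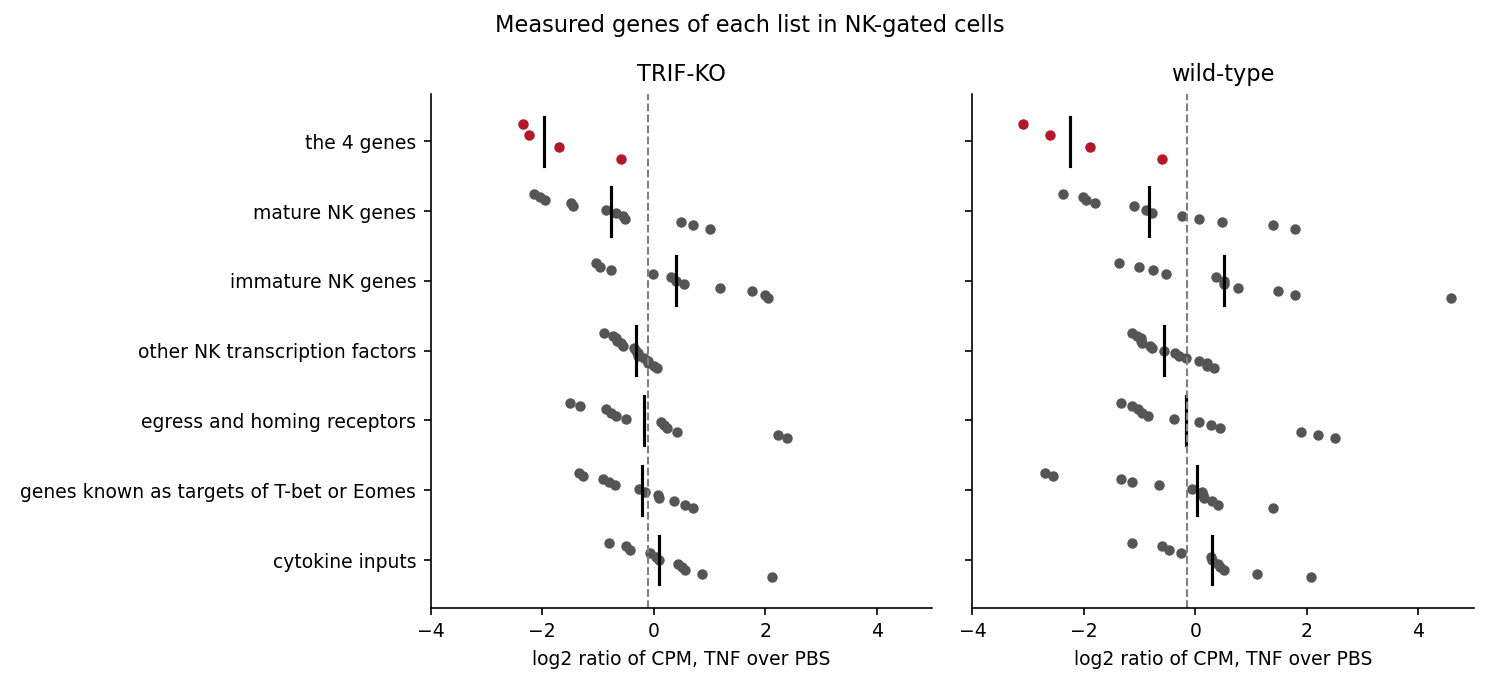
Log2 ratio of CPM in the TNF over the PBS library in NK-gated cells for each measured gene of each list (points), with the list median (black line) and the median of all 2923 measured genes (dashed line, -0.11 in TRIF-KO and -0.15 in wild-type). The 4 genes and the mature NK genes have medians left of the dashed line in both genotypes, and the immature NK genes have medians right of it.

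The genes most like each of the 4 were sought over 32 profiles, 8 gated classes in each of 4 libraries, among 8899 genes, by Pearson's r of log2(CPM + 20). The profiles share libraries and depth, and r is given as a description. For Tbx21 these were Qrfp (0.976), Samd3 (0.974) and Klra3 (0.963), and for Eomes Klra7 (0.996), Samd3 (0.992) and Klrc2 (0.990). S1pr5 was most like Klra9 (0.907), Qrfp (0.899) and Samd3 (0.884). For Zeb2 they were Qk (0.905), Casp1 (0.891) and Reep5 (0.885). Samd3 had 137 CPM in TRIF-KO TNF, 282 CPM in TRIF-KO PBS, 95.1 CPM in wild-type TNF and 259 CPM in wild-type PBS in NK-gated cells and 0 CPM in monocyte-gated cells. Qk, an RNA-binding protein gene, had 51.9 CPM in TRIF-KO TNF, 143 CPM in TRIF-KO PBS, 74.3 CPM in wild-type TNF and 132 CPM in wild-type PBS in NK-gated cells, and 180 to 224 CPM in monocyte-gated cells.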

How the data were processed

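The deposited matrices hold raw UMI counts per gene and barcode; per the file headers they come from Cell Ranger 6.0.1, while the submitters' processing notes name Cell Ranger 3.0, Seurat 4.1.1 and mm10. The version that made these counts, the library chemistry and any earlier doublet filter are not given in the sources used here. Totals were 67276803 UMIs (TRIF-KO TNF), 33771809 (TRIF-KO PBS), 34774147 (wild-type TNF) and 23614028 (wild-type PBS), and each sample is 1 library with no replicate. From the counts, barcodes below 200 genes or above 10% mitochondrial UMIs were dropped. The highest Scrublet scores, 0.8% per 1000 barcodes, were removed as likely doublets (455, 295, 288 and 54 cells in that order of libraries). A cell joined the class with most detected markers, at least 3 and at least 2 more than any other of 12 classes. UMIs were summed per class and library and given as CPM with exact Poisson intervals, shares have Clopper-Pearson intervals, and ratios have exact conditional intervals; the interval of a difference between 2 log2 ratios is approximate. A 0 was set against a floor of 3 UMIs. All cover counting error only. No test was run. The ratio code was tested on simulated counts. Alternatives were other scalings, gates, Leiden clusters, filters and weights. The list genes named are the up to 4 highest and 4 lowest by wild-type ratio, with others named for comparison. The members, markers and lists were chosen with earlier results of these data known. Calculations used Python 3.11.15, scanpy 1.11.5 and scipy 1.17.1; gene positions are from GENCODE, and 19 of 20 relatives matched by symbol. Single values of some listed genes are not reported here.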

Additional observations from a re-analysis of the deposited data

Results flagged for a closer look

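Thy1, a surface protein gene of T cells and of some NK cells, moved in opposite directions in NK-gated cells of the genotypes. It had 40 UMIs in TRIF-KO TNF, against 17 in TRIF-KO PBS, a log2 ratio of 1.195 (0.34 to 2.11), and 12 UMIs in wild-type TNF, against 32 in wild-type PBS, a log2 ratio of -1.01 (-2.10 to -0.01). It drew attention because each interval lay on its own side of 0. The difference was not tested, since each group is 1 library. The summed T-cell markers in the NK gate were higher with TNF in both genotypes. In wild-type PBS 1 NK-gated cell held 21 of the 30 UMIs of Cd3d, Cd3e and Cd3g. The part of T-cell RNA in the Thy1 result was not tested.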

How the results depend on the processing

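No paired analysis was possible because each group is 1 library and the result comes from no test. The 16 NK ratios each kept within their own intervals under all 11 alternatives (176 values), and those of TNF over PBS kept their sign, while genotype ratios near 0 changed sign for Tbx21 after TNF (-0.20 to 0.42) and for Zeb2 (-0.01 to 0.08) and S1pr5 (-0.07 to 0.04) after PBS. For Tbx21 the log2 ratios of TNF over PBS ran between -2.35 and -1.81 in TRIF-KO and between -2.20 and -1.73 in wild-type, for Eomes between -0.72 and -0.46 in TRIF-KO and between -0.63 and -0.42 in wild-type, for Zeb2 between -1.77 and -1.48 in TRIF-KO and between -2.71 and -2.44 in wild-type, and for S1pr5 between -2.41 and -2.20 in TRIF-KO and between -3.54 and -2.93 in wild-type. Leaving out cells with a UMI of Lyz2 or Csf1r, or of Cd3d, Cd3e or Cd3g, and the subset with Ccl5 were chosen after seeing the data. Levels rise by construction when mitochondrial, ribosomal, haemoglobin and immunoglobulin genes leave the total: Eomes 339 (TRIF-KO TNF), 468 (TRIF-KO PBS), 296 (wild-type TNF) and 413 CPM (wild-type PBS), Zeb2 289, 859, 146 and 826 CPM in that order, Tbx21 275 (TRIF-KO PBS) and 230 CPM (wild-type PBS), and S1pr5 273 (TRIF-KO PBS) and 265 CPM (wild-type PBS). With each cell weighted equally Zeb2 had 258 CPM in TRIF-KO TNF and 723 CPM in wild-type PBS. Thinning lowers every share by construction. In the order TRIF-KO TNF, TRIF-KO PBS, wild-type TNF and wild-type PBS it gave 9.33, 32.6, 10.1 and 31.3% for Tbx21, 37.3, 47.4, 33.3 and 49.3% for Eomes, 33.3, 57.8, 18.8 and 59.7% for Zeb2 and 6.67, 33.3, 2.90 and 40.3% for S1pr5. With a 5% mitochondrial filter the NK-gated share was 1.66, 3.89, 2.44 and 4.09% in the same order. That filter also gave log2 ratios of TNF over PBS of -1.72 (Eomes, T, wild-type), -2.05 (Eomes, CD8 T, wild-type), -0.062 (Zeb2, B, TRIF-KO) and -0.90 (Zeb2, B, wild-type). Clusters gave -1.65 (Eomes, T, wild-type) and -0.50 (Zeb2, B, wild-type), median-of-ratios scaling -0.51 (Zeb2, B, wild-type) and 0.49 (Zeb2, neutrophil, TRIF-KO), the gate after thinning -1.58 (Tbx21, CD8 T, TRIF-KO), and cells with Ccl5 -3.43 (Eomes, CD8 T, wild-type). For these ratios the cause was not tested. T clusters left out the unnamed cluster of 333 cells led by Ccl5, and held 358 UMIs of Eomes, against 543 in the T gate. B clusters left out an unnamed cluster of 1546 cells nearest to the B markers. With no filter on low counts, 1462 genes were at least 2-fold lower and 806 higher in TRIF-KO NK-gated cells, and 1735 lower and 948 higher in wild-type; more genes then enter. Median-of-ratios scaling gave 202 lower in wild-type. Depth limits S1pr5 most, with 8 UMIs in wild-type TNF, and ratios in gates under 50 cells are given only beside those of clusters.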
